A study of Mus musculus with 10 samples.

Results

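Inhibitory transmission in the brain runs mainly on GABA, and 26 genes of its machinery were followed here in ribosome-bound RNA of striatal neurons that use the dopamine D2 receptor gene. They were chosen as a list of gene symbols by function: subunits of GABA-A, GABA-B and glycine receptors, the scaffold gephyrin, enzymes that make and break down GABA, GABA transporters and the chloride cotransporters. All 26 of the 26 listed symbols were present among the 32531 gene symbols of the count tables. The list does not hold every gene of these families.

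The whole striatum was taken from adult mice of the line CP101 (Drd2-EGFP/Rpl10a), in which a bacterial artificial chromosome with the Drd2 regulatory region drives ribosomal protein L10a tagged with EGFP. All groups carry this transgene. Mice took either saline or cocaine by intravenous self-administration in short-access sessions, and tagged polysomes were pulled down with antibodies to EGFP (translating ribosome affinity purification, TRAP). Captured RNA gave 8 immunopurified (IP) libraries: numbers 1, 2 and 4 from the saline group and numbers 1 to 5 from the cocaine group. The saline group also has 1 input library, of total RNA, and the cocaine group has 1 library of the RNA left unbound. The labels give neither exact age nor sex, nor whether each library is 1 animal or a pool, so p-values measure the spread between these libraries only. The cell type label names medium spiny neurons for the input and unbound libraries too, although these hold RNA of all striatal cells.

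GABA-A receptors are chloride channels built from 5 subunits, usually alpha and beta subunits with a gamma or a delta subunit. Gamma subunits help place receptors at synapses, where gephyrin holds them, while receptors with delta sit mostly outside synapses and carry a tonic current. Medium spiny neurons are themselves GABAergic: they make GABA with glutamate decarboxylases, load it into vesicles, and receive it from neighbours and interneurons. Whether GABA hyperpolarises a neuron depends on its chloride gradient, which is set by cotransporters that import or export chloride.

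Members of the list lie in a cluster on mouse chromosome 5, where RefSeq places Gabrg1, Gabra2, Gabra4 and Gabrb1 between 70751047 and 72149572 (GRCm38.p6). Neighbours in this cluster differed in how they behaved in the capture comparison described further on, so the 250 bases before the annotated start of 3 of them are shown (RefSeq, GRCm38.p6, minus strand, written 5′ to 3′). Gabrg1, lower in every IP library than in the uncaptured library of its treatment, is read from chr5:70842618-70842867. Gabra2, near no difference, is read from chr5:71095850-71096099. Gabra4, higher on average in IP RNA, is read from chr5:71658309-71658558. This window lies within the RefSeq gene model of Gabrb1, which starts at 71657921 on the plus strand. Capitals mark a GC box.
Gabrg1: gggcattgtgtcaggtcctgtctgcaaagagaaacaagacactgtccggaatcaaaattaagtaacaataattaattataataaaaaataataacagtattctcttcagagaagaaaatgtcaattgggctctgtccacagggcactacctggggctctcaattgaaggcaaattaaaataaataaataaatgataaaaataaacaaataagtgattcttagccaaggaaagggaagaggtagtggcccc
Gabra2: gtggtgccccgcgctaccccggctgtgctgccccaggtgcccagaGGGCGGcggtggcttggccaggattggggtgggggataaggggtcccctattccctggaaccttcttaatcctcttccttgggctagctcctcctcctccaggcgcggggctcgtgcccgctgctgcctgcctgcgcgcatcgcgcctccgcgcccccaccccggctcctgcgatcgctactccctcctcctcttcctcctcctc
Gabra4: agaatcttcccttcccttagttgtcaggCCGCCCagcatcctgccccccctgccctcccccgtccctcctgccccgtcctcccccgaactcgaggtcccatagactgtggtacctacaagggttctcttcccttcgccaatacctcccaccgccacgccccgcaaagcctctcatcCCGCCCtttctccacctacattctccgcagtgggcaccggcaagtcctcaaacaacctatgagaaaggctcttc

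Both strands of each window were searched for 4 motifs. These were the TATA box, spelled TATAAA, and the GC box, spelled GGGCGG. The other searches were for the cAMP response element, spelled TGACGTCA, and for the E-box, whose letters are CACGTG. The Gabrg1 window held 1 CpG, had a GC content of 35.6% and matched none of the 4 motifs. The Gabra2 window held 18 CpG at a GC content of 70.0%, with 1 GC box. The Gabra4 window held 12 CpG at 61.2% GC, with 2 GC boxes, both on the opposite strand and so printed as CCGCCC. Gabrb1, the neighbour not shown, was also lower in every IP library than in its reference. Its window ending at 71657920 held 18 CpG at 64.4% GC, and that ending at 71699931 held 6 CpG at 50.8% GC. Neither matched any of the 4 motifs. Whether CpG or GC content of the windows goes with the capture ratios was not tested. Among 32851 windows of the same length before RefSeq genes, 32.7% held a GC box, 12.4% the TATA box, 6.02% the E-box and 1.55% the cAMP response element, and the median window held 6 CpG. Of the 26 genes, 23 had windows, 30 in all: a GC box was found in 16 of these 30, a TATA box in 5, an E-box in 1 and the cAMP response element in 0. A match describes letters in the window and says nothing of a factor bound there.

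Reads counted to genes numbered 22975667 to 31631137 per IP library, 18408782 for the input and 20882691 for unbound RNA. Levels are given as CPM, counts scaled to a common total of gene reads, after TMM scaling over all 10 libraries, and levels of different genes are compared only as CPM per kilobase of merged exons. The capture matched the label: Drd2 was higher in saline IP RNA than in the input by 2.65 ± 0.13 on the log2 scale (SD, n = 3) and Adora2a by 2.73 ± 0.33, while Drd1, the receptor of the direct pathway, stood at -3.40 ± 0.24. Against unbound RNA the cocaine IP values were 2.33 ± 0.27, 2.95 ± 0.26 and -2.88 ± 0.33 (SD, n = 5). Of the indirect-pathway markers, 7 of 7 exceeded their reference at least 2-fold in each IP library, in both comparisons. All 8 of 8 astrocyte markers and 7 of 7 oligodendrocyte markers were at least 2-fold lower, as were 7 of 8 measured GABA interneuron markers. Direct-pathway markers were lower in 7 of 7 cases after saline and 6 of 7 after cocaine, and cholinergic interneuron markers in 1 of 4 and 0 of 4.

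In IP RNA the GABA machinery spanned a wide range of levels. Gad2, a glutamate decarboxylase that makes GABA near terminals, stood highest at 214 ± 40.8 CPM per kilobase in saline IP RNA (SD, n = 3). Gabbr1, a subunit of the metabotropic GABA-B receptor, followed at 88.8 ± 23.6, then the vesicular GABA transporter Slc32a1 at 54.1 ± 12.4 and Gad1, the other decarboxylase, at 51.7 ± 8.47. Gad2 stood apart from the next gene by more than these SDs, whereas Slc32a1 and Gad1 did not differ beyond theirs. Next came Gabra4 at 42.8 ± 6.92, below Gad1 by slightly more than either SD, although the ranges of the 2 genes overlapped. Gabrb2 at 38.9 ± 6.67, the chloride exporter Slc12a5 at 36.5 ± 6.15 and Gabrd at 34.9 (range 26.8 to 46.1) followed. Each of these lay within the SDs of the gene above it. Glrb (22.4 ± 5.37), Abat (18.9 ± 1.71) and Gphn (16.2 ± 3.72) formed the next step. Gabra3, Gabra5, Gabra2, Gabrg3, Gabbr2 and Glra2 lay between 8.84 and 2.25 CPM per kilobase. The lowest of the 21 measured genes were Slc12a2 at 1.18 ± 0.39, Gabrb1 at 0.877 ± 0.16, Slc6a11 at 0.593 ± 0.27 and Gabrg1 at 0.417 ± 0.19 CPM per kilobase. Slc6a11 and Gabrg1 did not differ beyond their SDs.

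**Figure D1:**
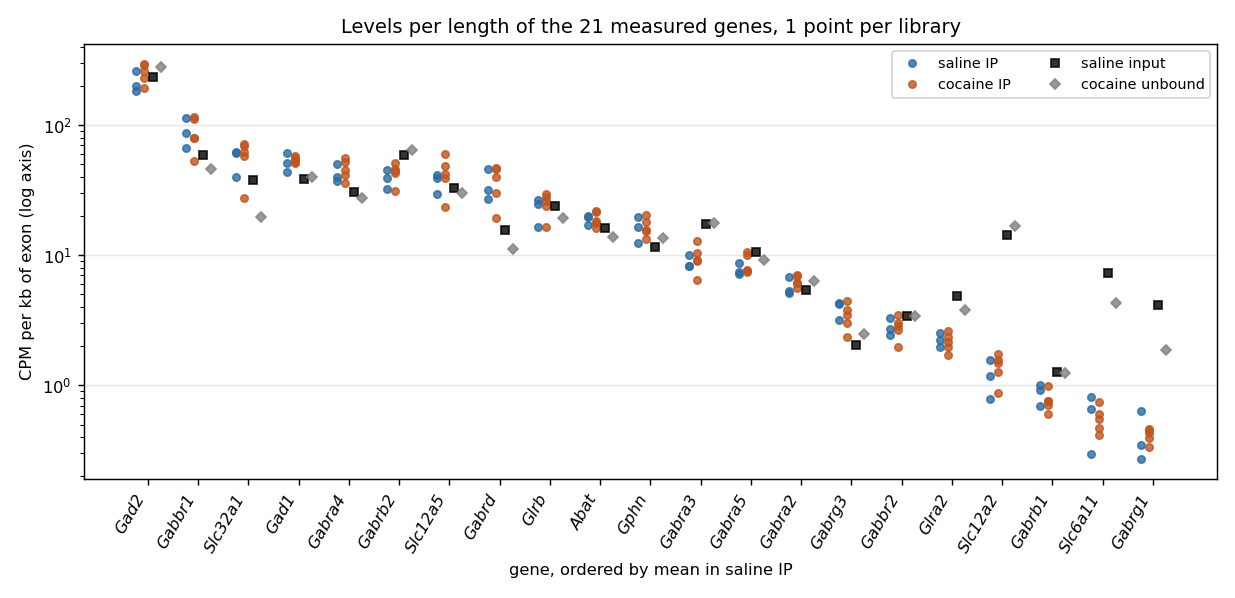
Level of each of the 21 measured genes in CPM per kilobase of merged exons (log axis), by library group; points are libraries. Gad2 sits above all other genes in IP RNA, and Slc12a2, Gabrb1, Slc6a11 and Gabrg1 sit lowest.

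The other 5 genes were scarce and are given as reads. Gabra6, an alpha subunit best known from cerebellar granule cells, had 1 read over all 10 libraries, and Gabre, the epsilon subunit, had 4. The glycine receptor subunit Glra3 had 2 to 5 reads per saline IP library, 3 to 9 per cocaine IP library, 7 in the input library and 2 in unbound RNA. Gabrq, the theta subunit, had 3, 1 and 4 reads in the saline IP libraries against 58 in the smaller input library, and 15, 0, 4, 16 and 1 in the cocaine IP libraries against 21 in the unbound library. The GABA transporter Slc6a13 had 7 reads over the 3 saline IP libraries, all of them in number 2, and 11 in the input. It had 8 reads over the 5 cocaine IP libraries and 11 in the unbound library. In an IP library 3 reads equal 0.0948 to 0.131 CPM, so these genes lie near the limit of what the depth can show.

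The first comparison asked how the relative level of each transcript differed between captured and uncaptured RNA. Saline IP RNA was set against the input and cocaine IP RNA against the unbound library. Log2 ratios of CPM plus 1 were taken per IP library, and a gene was called only when every IP library differed at least 2-fold the same way. In each comparison 3 of 21 measured genes were lower, the same 3 genes, and 0 were higher. Of all genes measured, 12.8% were lower in this sense in saline IP RNA (12923 genes) and 11.6% in cocaine IP RNA (12709 genes), so that the 14.3% found here lies near the background. The shares called higher among all genes were 0.851% and 2.02%. The median ratio of the 21 genes was -0.12 against the input and -0.01 against unbound RNA, beside 0 for all genes in both. These are mixed extracts, in which fewer cells of a type and less RNA per cell cannot be told apart. Each reference is a single library, so these ratios carry no test. The labels place both references in lane 1, which holds no IP library, so capture and lane cannot be told apart.

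The 3 lower genes were a chloride importer, a GABA uptake carrier and a gamma subunit. Slc12a2 encodes NKCC1, which imports chloride. It had 12.9, 8.58 and 17.0 CPM in saline IP libraries 1, 2 and 4 against 157 in the input (95% Poisson interval 152 to 163, which covers counting error only). In cocaine IP libraries 1 to 5 it had 17.2, 9.47, 16.3, 13.9 and 19.1 CPM against 183 in the unbound library. The ranges in IP RNA did not approach either reference: Slc12a2 was 11.8-fold lower after saline (log2 ratio -3.56 ± 0.46, SD, n = 3) and 11.7-fold lower after cocaine (-3.54 ± 0.37, SD, n = 5) on the CPM plus 1 scale.

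Slc6a11 encodes GAT-3, a plasma membrane GABA transporter found mainly on astrocytes. It had 4.12, 1.51 and 3.35 CPM in the saline IP libraries against 36.8 in the input, a log2 ratio of -3.30 ± 0.54. In the cocaine IP libraries it had 2.78, 2.39, 2.12, 3.05 and 3.75 CPM against 21.7 unbound, a log2 ratio of -2.59 ± 0.24. The highest IP library thus held far less Slc6a11 than either uncaptured library.

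Gabrg1 encodes the gamma 1 subunit. It had 2.74, 2.13 and 4.98 CPM in the saline IP libraries against 32.3 in the input, a log2 ratio of -3.02 ± 0.48. In the cocaine IP libraries it had 3.60, 3.08, 3.61, 3.37 and 2.66 CPM against 14.7 unbound, a log2 ratio of -1.88 ± 0.14. The means in IP RNA were 3.28 ± 1.5 and 3.27 ± 0.40 CPM. The references are different fractions after different treatments, with 1 library each, so the spread between such libraries was not measured.

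Markers of other cells were low in the same libraries. The summed level of 8 astrocyte markers was 92.0 to 181 CPM in saline IP RNA against 2117 in the input, and 125 to 190 CPM in cocaine IP RNA against 2078 unbound. Their median log2 ratios were -3.94 and -3.44. The summed level of 7 oligodendrocyte markers was 205 to 461 CPM after saline and 213 to 444 CPM after cocaine, against 4660 in the input and 5191 unbound. GABA interneuron markers summed to 14.6 to 24.6 CPM against 316 in the input, and to 17.5 to 30.3 CPM against 311 unbound. The part of these cells in the ratios of the 3 genes was not tested.

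**Figure D2:**
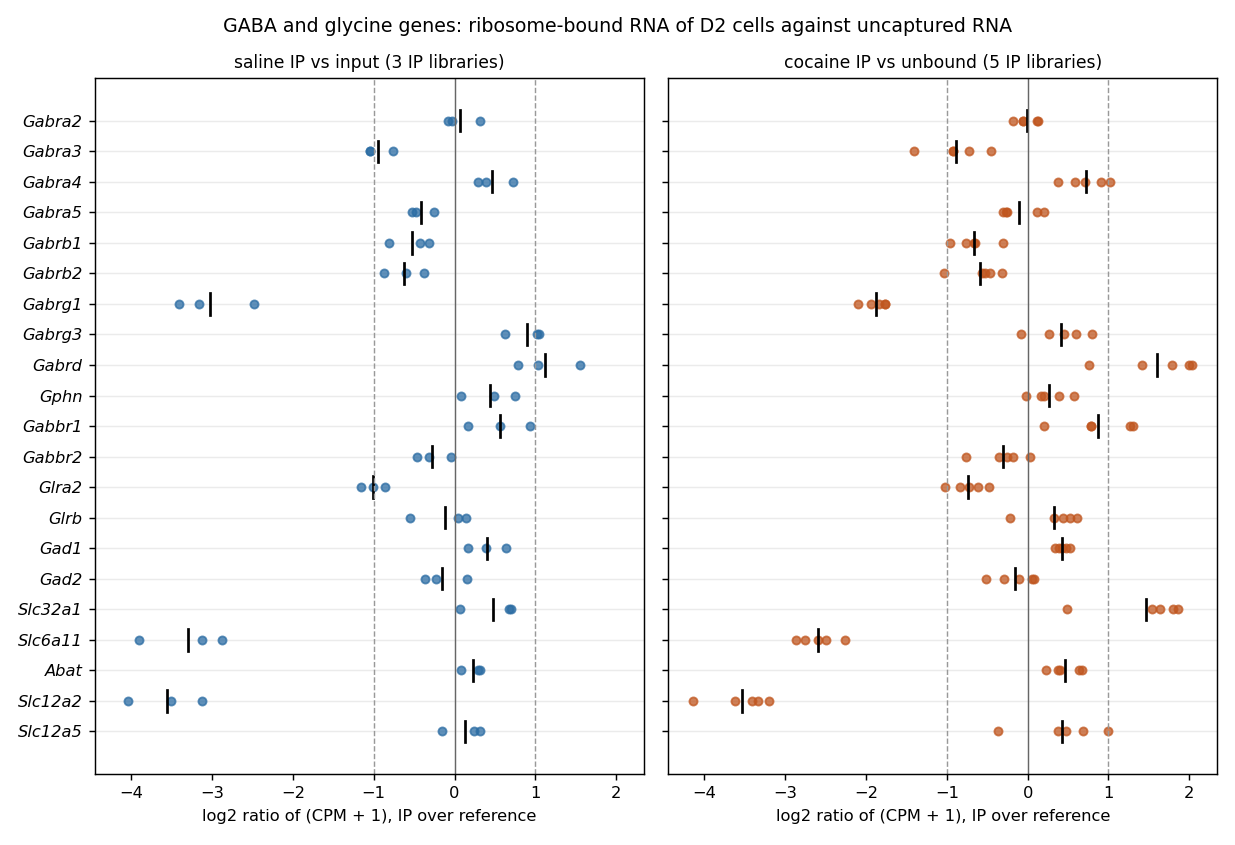
Log2 ratio of each measured gene in IP RNA, saline IP libraries against the input and cocaine IP libraries against the unbound library; points are IP libraries and the dashed lines mark 2-fold. Slc12a2, Slc6a11 and Gabrg1 lie beyond 2-fold lower in every library, and Gabrd lies highest on average.

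Among receptor subunits that did not meet the call, Gabrd, the delta subunit of extrasynaptic receptors, had the highest ratios. It stood at 77.1, 132 and 91.7 CPM in the saline IP libraries against 44.5 in the input, and at 55.3, 114, 132, 87.2 and 135 CPM in the cocaine IP libraries against 32.3 unbound. Every IP library was above its reference, with log2 ratios of 1.12 ± 0.40 and 1.60 ± 0.53, and 2 of 3 and 4 of 5 libraries passed 2-fold. The exceptions were the number 1 libraries of both treatments. Gabrg3, the gamma 3 subunit, stood at 0.90 ± 0.24 against the input and 0.41 ± 0.33 against unbound RNA. Gabra4, the alpha subunit that commonly pairs with delta, stood at 0.47 ± 0.23 and 0.72 ± 0.26.

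Other alpha and beta subunits lay at or below their references. Gabra2 was at 0.07 ± 0.22 and -0.01 ± 0.13, and Gabra5 at -0.42 ± 0.15 and -0.11 ± 0.24. Gabra3 was at -0.95 ± 0.17 and -0.89 ± 0.35, below the reference in every IP library. Gabrb2 (-0.62 ± 0.25 and -0.59 ± 0.27) and Gabrb1 (-0.52 ± 0.26 and -0.67 ± 0.24) were likewise below it in every library. Of the glycine receptor subunits, Glra2 was at -1.01 ± 0.15 and -0.74 ± 0.21, while Glrb, the beta subunit that binds gephyrin, was at -0.12 ± 0.37 and 0.33 ± 0.33. Gphn itself was at 0.44 ± 0.34 and 0.26 ± 0.23. The obligate partners of the GABA-B receptor parted: Gabbr1 stood at 0.56 ± 0.39 and 0.87 ± 0.45 and Gabbr2 at -0.28 ± 0.22 and -0.30 ± 0.29.

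The genes that make, load and break down GABA lay near or above their references. Slc32a1 stood at 0.48 ± 0.36 against the input and 1.46 ± 0.56 against unbound RNA, where 4 of 5 libraries passed 2-fold. Gad1 stood at 0.40 ± 0.24 and 0.43 ± 0.07, and Abat, the mitochondrial transaminase that degrades GABA, at 0.23 ± 0.13 and 0.46 ± 0.19. Gad2 was at -0.15 ± 0.27 and -0.16 ± 0.25. Slc12a5, which encodes the neuronal chloride exporter KCC2, was at 0.13 ± 0.25 and 0.43 ± 0.50. The Slc32a1 value is uncertain, because 24.9% of its exon bases overlap an antisense gene model (Gm14205) and the strand setting of the counting is not given in the sources used here. Smaller overlaps touch Gabra5 (5.0% of exon bases), Gphn (3.9%), Gabra4 (0.8%) and Gabrb1 (0.3%), the last 2 with each other.

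A test over libraries was obtained by fitting all 10 together with terms for treatment and capture, taking the input and the unbound library as uncaptured although they are different fractions (edgeR quasi-likelihood test, adjusted over 16022 genes). Of 23 genes tested, 7 were higher in IP RNA (30.4%, background 18.8%) and 9 lower (39.1%, background 34.6%). The median log2 difference of all genes in this fit was -0.16. Both uncaptured libraries were in lane 1 and every IP library in another lane, so this test does not separate capture from lane. The delta subunit gene Gabrd was highest, by 1.44 (SE 0.32, adjusted p = 0.00221), followed by Slc32a1 (1.01, SE 0.34, adjusted p = 0.0231), Gabbr1 (0.76, SE 0.27, adjusted p = 0.0300), Gabrg3 (0.67, SE 0.22, adjusted p = 0.0201) and Gabra4 (0.62, SE 0.18, adjusted p = 0.0105). Gad1 (0.43, SE 0.13, adjusted p = 0.0142) and Abat (0.36, SE 0.14, adjusted p = 0.0482) completed the higher genes. Abat kept its call in only 2 of 12 alternative fits with both references. Gabbr1 lost its call without saline IP 2 (adjusted p = 0.0706).

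Lower by the same test were Slc12a2 at -3.60 (SE 0.21, adjusted p = 7.2e-08), Slc6a11 at -3.29 (SE 0.27, adjusted p = 9.36e-07) and Gabrg1 at -2.76 (SE 0.27, adjusted p = 4.43e-06). Receptor subunits with smaller differences were Glra2 at -0.95 (adjusted p = 6.73e-04), Gabra3 at -0.92 (adjusted p = 0.00111), Gabrb1 at -0.62 (adjusted p = 0.0133) and Gabrb2 at -0.59 (adjusted p = 0.00877). The scarce Gabrq (-3.57, SE 0.94, adjusted p = 0.00621) and Slc6a13 (-2.93, SE 1.04, adjusted p = 0.0304) were lower too, on the few reads given above, and Slc6a13 was not called with DESeq2 (adjusted p = 0.129). The 7 genes tested but not called were Gphn, Slc12a5, Glrb, Gabra2, Gad2, Gabra5 and Gabbr2, with differences from 0.37 to -0.28. Of the 16 called genes, 13 were called under every one of 12 alternatives with both references. All 12 keep the same input and unbound library, so they do not show how far the calls depend on either.

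Ratios between family members within a library do not depend on the scaling, since both genes share it. Slc12a5 exceeded Slc12a2 per kilobase by 24.97-, 49.7- and 26.3-fold in saline IP libraries 1, 2 and 4 and by 14.8- to 45.1-fold in the cocaine IP libraries, but by 2.29-fold in the input and 1.79-fold in the unbound library. Exporter and importer transcripts thus stood far more apart in captured RNA than in either uncaptured library. Gabra4 made up 65.3 ± 3.61% of the summed level per kilobase of Gabra2, Gabra3, Gabra4 and Gabra5 in saline IP RNA and 65.0 ± 1.79% in cocaine IP RNA, against 48.0% in the input and 45.3% unbound. The share of Gabra3 was 13.7 ± 2.45% and 13.6 ± 2.72% in IP RNA against 27.0% and 29.0%. Gabbr1 exceeded Gabbr2 by 31.1 ± 3.55-fold and 31.0 ± 4.06-fold in IP RNA against 17.2- and 13.6-fold. Gad2 exceeded Gad1 by 4.13 ± 0.18-fold and 4.67 ± 0.66-fold in IP RNA against 6.05- and 6.98-fold. For Gabrb2 against Gabrb1 the IP libraries (31.9- to 65.7-fold) spanned both references (46.5- and 51.5-fold).

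**Figure D3:**
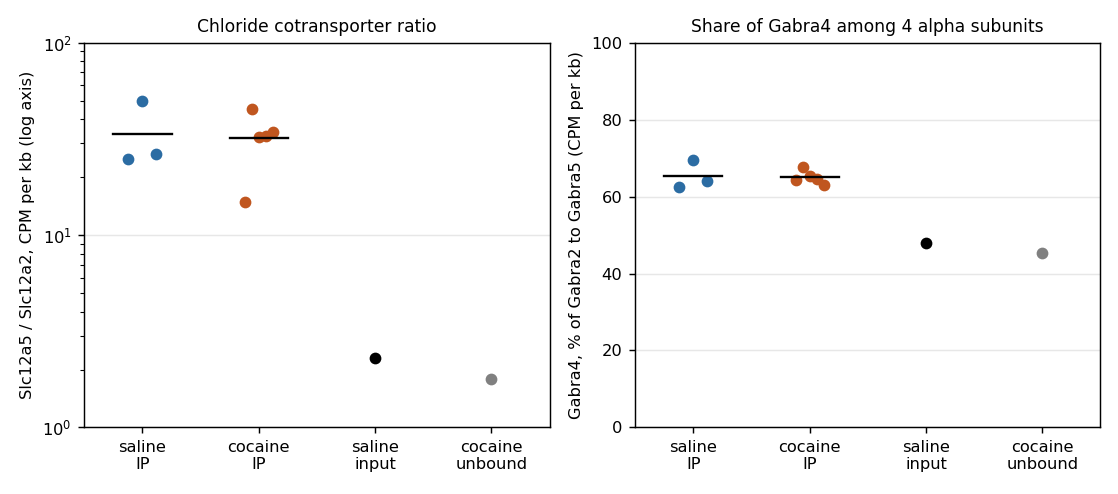
Ratios and shares between related genes, each taken per kilobase within a library, by library group. The Slc12a5 to Slc12a2 ratio lies between 14.8 and 49.7 in IP RNA and at 2.29 and 1.79 in the input and unbound libraries.

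Among 49 further genes of GABA handling, receptor trafficking and chloride transport, 42 were measured, with 5 lower (11.9%, background 12.8% and 11.6%) and 0 higher in each comparison and medians of -0.17 and -0.12. The share lower is thus near the background. Those lower in both were Glul, the glutamine synthetase of astrocytes (-2.92 ± 0.87 and -3.44 ± 0.65), Slc6a9, a glycine transporter (-2.23 ± 0.42 and -1.91 ± 0.31), Iqsec3, a gephyrin-binding exchange factor (-2.11 ± 0.36 and -1.93 ± 0.32), and Aldh9a1, an aldehyde dehydrogenase that can form GABA from aminobutyraldehyde (-1.67 ± 0.51 and -1.78 ± 0.14). In the test over libraries 8 of 45 were higher (17.8%, background 18.8%) and 17 lower (37.8%, background 34.6%), again near the background.

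The second comparison, set by the design, was between IP RNA after cocaine and after saline. No difference was found for any of the GABA and glycine genes at this depth and number of libraries: 0 of 21 tested passed an adjusted p of 0.05 in edgeR (background 0% of 13800 genes), and 0 passed an unadjusted p of 0.05 (background 2.14%). DESeq2 likewise called 0 by either threshold (background at the unadjusted threshold 2.16%). The groups overlapped for all 21 genes (background of genes without overlap 2.34%). Log2 fold changes of cocaine against saline lay between -0.20 and 0.24, with a median of 0.06 beside 0.01 for all genes, and 14 were positive and 7 negative.

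The 4 genes with the smallest p show the spread. Gad2 had 1526, 1069 and 1174 CPM in the saline IP libraries and 1694, 1141, 1343, 1518 and 1738 CPM in the cocaine IP libraries. Its fold change was 0.24 on the log2 scale (SE 0.16, 95% interval -0.07 to 0.56, edgeR unadjusted p = 0.161, adjusted p = 0.9998), and 3 of the 5 cocaine libraries lay within the saline range.

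Gabrb1, a beta subunit, had 14.0, 12.8 and 9.59 CPM after saline and 8.35, 10.46, 13.8, 9.71 and 10.55 CPM after cocaine. Its fold change was -0.20 (SE 0.18, 95% interval -0.56 to 0.16), with only cocaine IP 1 below the saline range.

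Gabra2 had 52.3, 40.7 and 39.2 CPM after saline and 42.9, 52.5, 53.6, 46.9 and 46.7 CPM after cocaine. Its fold change was 0.14 (SE 0.13, 95% interval -0.12 to 0.39). Slc12a2, whose values stand above, had a fold change of 0.24 (SE 0.25, 95% interval -0.24 to 0.73). In both genes most cocaine libraries lay within the saline range.

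For the other 17 genes the unadjusted p was at least 0.350. The 95% intervals of all 21 reached no further than -0.71 and 0.73, and 11 of them lay within 0.5 of 0 on the log2 scale. These bounds belong to the fit with treatment as the only term, and treatment is largely tied to lane, as described below. With lane as a term most fold changes lay inside their intervals, but some lay outside. Examples were Gabra3 at -0.39 (interval -0.25 to 0.49) and Slc12a5 at -0.41 (interval -0.26 to 0.69). The bounds thus do not limit how large a difference could have gone unseen, nor show that the treatments gave equal levels. The median SE of the 21 genes was 0.185, close to the 0.179 of all genes.

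**Figure D4:**
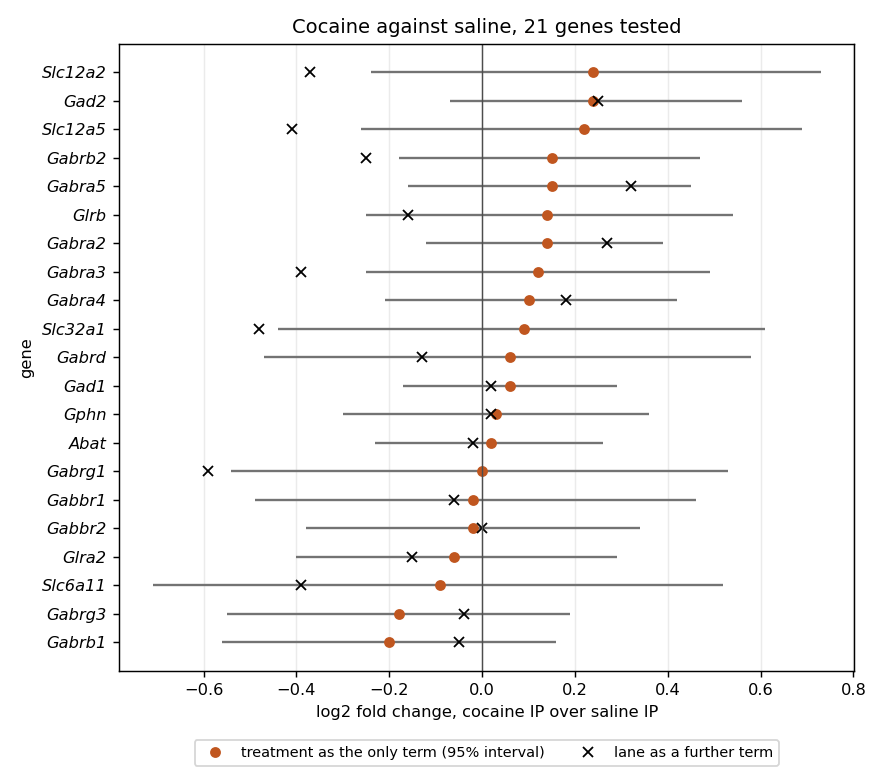
Log2 fold change of cocaine against saline IP RNA for the 21 tested genes, with 95% intervals, beside the values with lane as a term. All intervals include 0, and many values shift when lane is a term.

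The signs of the fold changes were not stable to a lane term and to which libraries were used. The labels place saline IP 1 and 2 in lane 7, saline IP 4 and cocaine IP 1 and 2 in lane 6, and cocaine IP 3 to 5 in lane 4. Treatment is thus tied to lane in all but lane 6. A fit with lane as a term therefore rests on saline IP 4, 1 library, against cocaine IP 1 and 2, and does not separate lane from these libraries. With lane as a term 14 of the 21 fold changes were negative, 6 positive and that of Gabbr2 0.00, and 0 passed the adjusted threshold. Within the cocaine libraries, lane 4 against lane 6, 0 of 22 genes tested passed it (background 0% of 13746 genes). At an unadjusted p under 0.05 (background 5.41%) stood Slc12a5 (0.68, SE 0.24) and Gabra3 (0.47, SE 0.21), both with an edgeR adjusted p = 0.862. Pairing numbers 1, 2 and 4 across treatments gave 3 of the 21 genes with an unadjusted p under 0.05 in edgeR (background 6.52% of 14002 genes). The same 6 libraries without the block gave 0 (background 1.04%), as did all 8 libraries. The 3 genes were Gabrd at -0.26 (SE 0.09, adjusted p = 0.758), Gad2 at 0.20 (SE 0.09, adjusted p = 0.761) and Gabrb1 at -0.35 (SE 0.16, adjusted p = 0.761). Without saline IP 1 the unadjusted threshold was passed by 1 of the 21 genes, Gad2 (background 2.43%), and without cocaine IP 1 by 1, Slc12a5 (background 4.4%). Over 16 alternatives the sign changed under at least 1 for 15 genes and under none for 6, and the smallest adjusted p of any of them was 0.758.

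The libraries numbered 1 stood apart in both treatments, a pattern picked out after its values were seen and therefore given without a test. Of 19 genes with at least 5 CPM, 8 had both number 1 libraries below all 6 other IP libraries, and 1 had both above. Among all 9091 genes with a GC value and at least 5 CPM, 17.1% had both below and 13.4% both above. The 8 were Slc32a1 (a mean log2 difference of -0.93), Gabrd (-0.79), Slc12a5 (-0.75), Gabbr1 (-0.70), Glrb (-0.68), Gabrb2 (-0.50), Gabbr2 (-0.43) and Gabra4 (-0.37). Slc32a1, for example, had 111 CPM in saline IP 1 against 170 and 173 in numbers 2 and 4, and 77.0 CPM in cocaine IP 1 against 160 to 200 in the other cocaine libraries.

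The gene with both number 1 libraries above was Gphn, at 74.2 and 76.4 CPM against 46.3 to 67.5 CPM elsewhere (0.40). The other 10 genes overlapped between the number 1 libraries and the rest, with differences from -0.43 for Gabra3 to 0.29 for Gad2. Beside this, the summed level of 7 indirect-pathway markers was 8420 and 7469 CPM in saline IP 1 and cocaine IP 1 and 9873 to 13020 CPM in the other IP libraries. That of 7 oligodendrocyte markers was 461 and 444 CPM against 205 to 338. GABA interneuron markers summed to 24.55 and 30.3 CPM against 14.6 to 24.46, and cholinergic interneuron markers, of another cell type that uses Drd2, to 29.7 and 40.9 CPM against 16.0 to 23.6. The other marker lists overlapped. GC content and the difference gave Pearson's r = -0.52 and Spearman's rho = -0.34 over the 19 genes, and -0.14 and -0.16 over the 9091, as a description of genes that share the same libraries. The part of these values in the pattern was not tested.

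**Figure D5:**
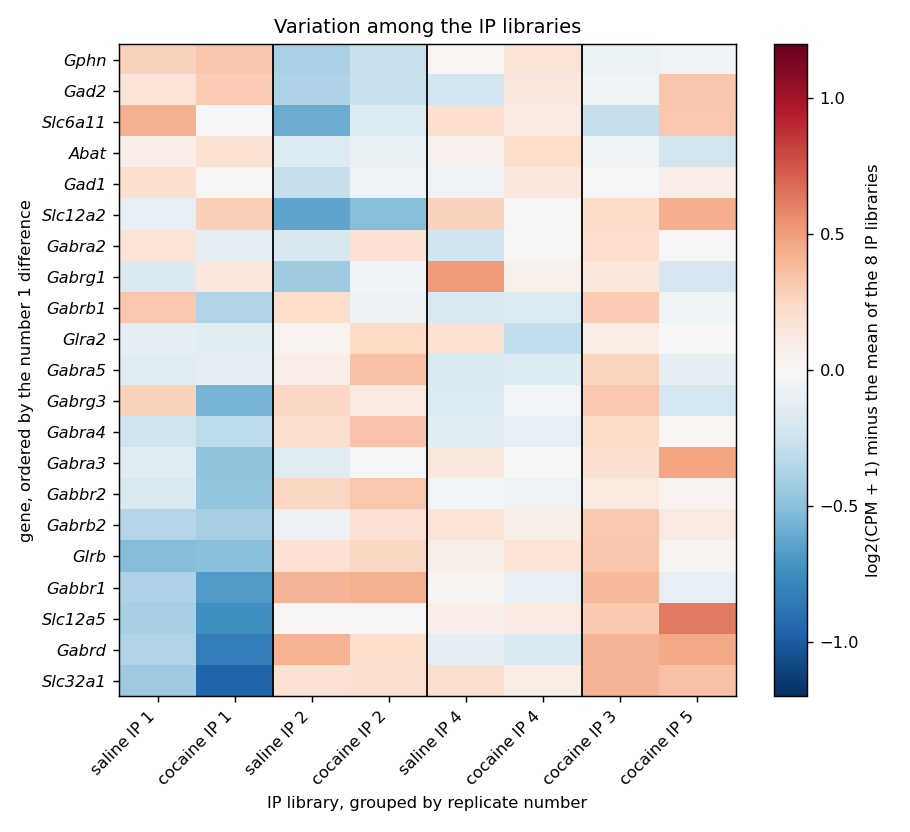
Deviation of each measured gene from its mean over the 8 IP libraries (log2 of CPM plus 1), by library. The columns of saline IP 1 and cocaine IP 1 share low values for Slc32a1, Gabrd, Slc12a5 and Gabbr1 and higher values for Gphn and Gad2.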

How the data were processed

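Each library has 1 table of raw read counts per gene symbol, as deposited by the authors; per the submitters' processing notes, STAR 2.0.0e and HTSeq were used with build mm10. For the HTSeq version, the annotation and the strand setting: not given in the sources used here. Special counters of HTSeq and an entry named unknown (0 reads) were left out of library sizes. Reads in no feature made up 12.9% to 14.4% of the IP libraries, 25.5% of the input and 27.4% of the unbound library.

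Levels are TMM-scaled CPM, with factors from genes kept by filterByExpr over the 10 libraries, and merged exon lengths and positions from GENCODE vM21 (GRCm38, the assembly of mm10), in which all 26 symbols were found. IP ratios are differences in log2(CPM + 1), over genes averaging 1 CPM or more in the libraries compared. Treatment, capture and lane were tested with edgeR 4.0.16 in R 4.3.3 (quasi-likelihood test, two-sided, Benjamini-Hochberg adjustment over all genes tested), and DESeq2 1.42.0 was an alternative. SE is the absolute log2 fold change over the square root of F, and 95% intervals assume a normal error. Poisson intervals (95%) cover counting error only.

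Treatment groups and numbers come from the sample titles, lanes from the descriptions. Same-numbered saline and cocaine IP libraries deviated together from their group means (r = 0.635, 0.517 and 0.229 across 13800 genes, each above 0.1), so numbers were taken as pairs, although no label explains them. Saline IP 2 and 4 also correlated with cocaine IP 3 (0.368 and 0.122), which has no saline library of its number. Over the 21 genes the same-number values were 0.746, 0.816 and 0.199. Saline IP 2 with cocaine IP 3 gave 0.788 there, and saline IP 4 with cocaine IP 5 gave 0.235. The pairs were thus chosen from the same data that the block was fitted to. The genes, the lists and the tests were chosen with earlier results of these data known. Values by library are given for genes called in either IP comparison and for the 4 with the smallest p for cocaine against saline; further values by library were chosen after they were seen. On simulated counts the treatment test (12152 genes) recovered 22.4%, 68.7% and 92.4% of the genes given a 1.5-, 2- and 3-fold difference, and made 7 false calls.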

Additional observations from a re-analysis of the deposited data

How the results depend on the processing

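For cocaine against saline, 0 genes passed the adjusted threshold under all 16 alternatives (scaling, DESeq2, no low-count filter, lane, pairing, and libraries left out), but signs moved. With lane as a term the log2 fold changes that reversed were Gabra3 -0.39, Gabrb2 -0.25, Gabrd -0.13, Glrb -0.16, Slc32a1 -0.48, Abat -0.02, Slc12a2 -0.37 and Slc12a5 -0.41. With the replicate block, pairing numbers 1, 2 and 4, they were Gabra3 -0.12, Gabrg1 0.10, Gabrd -0.26, Slc32a1 -0.21 and Slc12a5 -0.11. The same 6 libraries without the block gave Gabra3 -0.11, Gabrg1 0.02, Gabrd -0.24, Slc32a1 -0.15 and Slc12a5 -0.08. Without the lane 4 libraries the values were Gabra3 -0.19, Gabrb2 -0.02, Gabrg1 0.02, Gabrd -0.25, Glra2 0.02, Glrb -0.03, Gad1 0.00, Slc32a1 -0.29 and Slc12a5 -0.24. Leaving out each IP library in turn, the fold changes ranged from -0.05 to 0.06 for Abat, -0.21 to 0.20 for Gabbr1, -0.13 to 0.12 for Gabbr2, -0.02 to 0.22 for Gabra3, -0.12 to 0.31 for Gabrd and -0.23 to 0.41 for Gabrg1. They ranged from -0.04 to 0.18 for Gad1, -0.16 to 0.02 for Glra2, -0.06 to 0.28 for Glrb, -0.13 to 0.18 for Gphn, -0.11 to 0.25 for Slc32a1 and -0.41 to 0.20 for Slc6a11. The values with lane as a term rest on 1 saline library, saline IP 4. The cause of these reversals was not tested.

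For the IP ratios, a limit of 1.5-fold in place of 2-fold gave 2 higher and 5 lower genes against the input and 1 higher against unbound RNA. Leaving out 1 library, the count higher against the input ranged from 0 to 1 (Gabrd without saline IP 1, Gabrg3 without saline IP 4) and the count lower from 3 to 6: without saline IP 4, Gabra3 and Glra2 joined, and Gabrq passed the low-value filter. Against unbound RNA the count higher ranged from 0 to 2, with Gabrd and Slc32a1 called without cocaine IP 1. Shares over all genes at these settings are not given here, so the counts show only how the calls moved. TMM over every gene, an alternative chosen after seeing the data, moved the median ratio of all genes to 0.10 against the input and 0.16 against unbound RNA.

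In the test of capture, fits with the input alone or unbound RNA alone have 1 uncaptured library each, assumed to vary like the IP libraries. Only differences are therefore given from them. Gabra2, near 0, came to -0.02 with library size alone and -0.03 against unbound RNA alone, and ranged from -0.07 to 0.07 with libraries left out. Glrb came to -0.08 against the input alone. With TMM over the genes kept in the fit, also chosen after seeing the data, Gad2 came to 0.02 and Gphn was called (0.53, edgeR adjusted p = 0.0310). Depth limits the 5 scarce genes, and the single input and unbound libraries limit every ratio.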
